A study of Mus musculus with 4 samples.

Results

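Short interspersed elements (SINEs) were followed in total RNA of mouse embryonic fibroblasts (MEF cells) with and without genistein, a plant isoflavone. The deposited count table has 1 row per repeat subfamily, named by subfamily, family and class, and every row of the class SINE was taken, 38 of 1445 repeat rows and of 49382 gene and repeat rows in all. They comprise 15 rows of the B1 family (named Alu in the table), 5 of the B2 family, 4 of the B4 family, 4 of the ID family, 5 of the MIR family and 5 rows of other old families. Both groups had 2 libraries. The untreated group is labelled wild-type, control MEF, and the other group is MEF exposed to 50 µM genistein for 24 h. Its genotype field in the labels holds only the treatment. The labels name MEF as a cell line and do not say whether it is 1 clone. They also do not say whether the replicates were separate cultures, or whether the control received solvent. The spread between these libraries may therefore be technical. The p-values below rest on that spread as the tests share it over all genes and repeats, not on that of each row alone.

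SINEs are short, non-coding retrotransposons that RNA polymerase III can transcribe from a promoter inside the element, and that borrow the enzymes of LINE elements to move. B1 descends from 7SL RNA, the RNA of the signal recognition particle. B2, ID and MIR descend from transfer RNAs or their relatives, and B4 elements join an ID-related part to a B1-related part. Most SINE copies lie in introns and other transcribed regions, so that SINE sequence is also read as part of longer RNA polymerase II transcripts, and a count per subfamily does not tell these sources apart. B2 RNA made by RNA polymerase III is known for binding RNA polymerase II and for its response to heat shock.

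A subfamily sums copies from the whole genome, so no single locus or sequence stands for a row. The small RNA nearest to the origin of ID has an annotated gene, and its sequence is shown because its repeat row is compared with the SINE rows further on. Bc1, the gene of a small brain RNA related to ID elements, lies at chr7:144914470-144914637 (GRCm38, the assembly also called mm10, plus strand, GENCODE M21 transcript) and is a non-coding RNA gene. Capitals in Bc1 mark GGTTCG, the core letters of the B box, an inner promoter element of genes for RNA polymerase III. The core occurs 1 time in Bc1 on its own strand and 0 times on the other, and 4.72% of 32851 windows of 300 bases around gene starts (RefSeq, GRCm38.p6) hold it on either strand.
Bc1: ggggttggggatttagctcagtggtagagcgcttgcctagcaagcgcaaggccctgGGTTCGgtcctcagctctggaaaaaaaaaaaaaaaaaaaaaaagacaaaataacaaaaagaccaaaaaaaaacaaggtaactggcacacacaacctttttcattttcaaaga

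Total counts ranged from 28591958 to 31464284 per library. Fibroblast markers, whose 12 genes include collagens and Vim, summed to 458195 to 469019 normalised counts without genistein and 438940 to 447969 with it, with 1 of them at 0. Summed markers of other cell types were far lower. Neural markers had 859.7 to 915 against 747 to 783, and epithelial markers 452 to 462 against 131 to 137. Muscle, leukocyte, endothelial and pluripotent markers each had at most 84.9 in an untreated and 313 in a genistein library. Rows of ribosomal RNA repeats took 1.59% to 1.79% of untreated and 2.69% to 3.62% of genistein libraries, and the 7SLRNA row 4.70% to 5.04% against 2.47% to 2.5%. Without these rows, an alternative chosen after seeing the data, 35 subfamilies were still higher and 2 lower.

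The first comparison asked how far genistein changes SINE transcripts. SINE counts summed to 805839 and 805448 in untreated 1 and 2, against 1263003 and 1133932 in genistein 1 and 2. They took 2.62% and 2.79% of all untreated counts, and 4.01% and 3.97% of all genistein counts. The groups did not overlap. As normalised read counts, which are counts scaled to a common library size over genes and repeats (TMM, trimmed mean of M-values), the sum rose from 828859 ± 33748 to 1166038 ± 25855 (SD, n = 2). Its log2 fold change was 0.49 (SE 0.028, adjusted p = 1.6e-10, quasi-likelihood test of edgeR, Benjamini-Hochberg adjusted over all entries).

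Of the 38 subfamilies, 37 passed the filter on low counts, and LmeSINE1c, a row of an old family, had 0 counts in every library. Among the 37, AmnSINE2 passed only with the help of its genistein libraries. At an adjusted p under 0.05, 35 of the 37 were higher with genistein and 2 were lower, whereas with repeats scaled among themselves 0 were higher and 24 lower. In the same fit 36.2% of all genes and repeats were higher and 36.0% lower, and among repeats alone 76.3% were higher and 2.86% lower. The median log2 fold change of the subfamilies was 0.56, against 0.69 for all 1118 repeats tested and -0.03 for the 16240 genes tested. The rise of most SINEs is therefore a value relative to genes. With the thresholds of the study's methods (absolute log2 fold change over 1, mean normalised count over 100, adjusted p under 0.05) 0 subfamilies were called, against 7.82% of all entries. By edgeR, 37 had an adjusted p under 0.05 without the other thresholds, and DESeq2 called 36 of them.

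**Figure D1:**
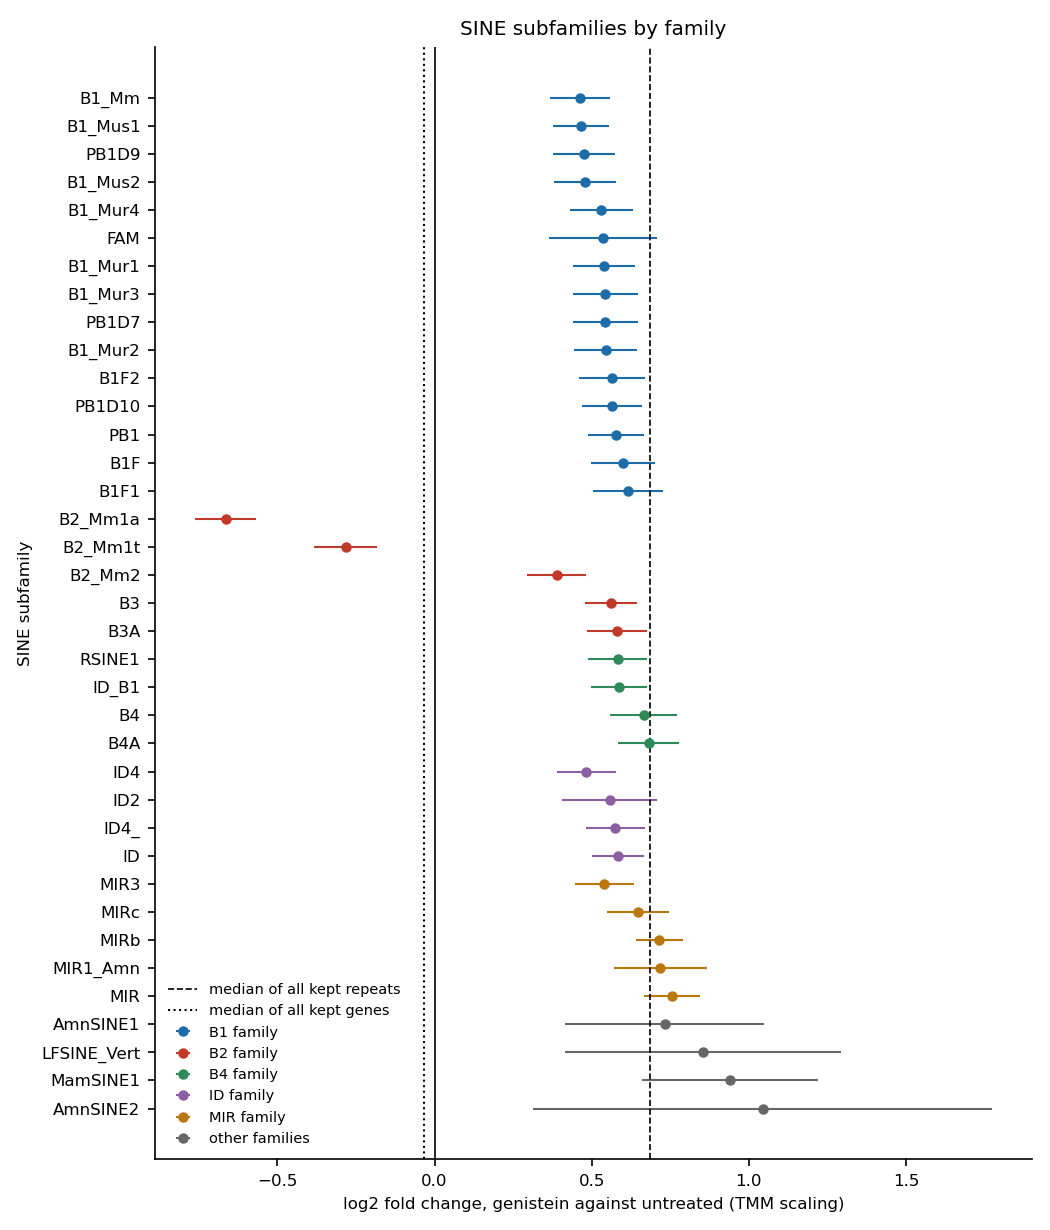
Log2 fold change of genistein against untreated for the 37 tested SINE subfamilies, coloured by family, on the TMM scale; points are estimates over 2 libraries per group and bars are 95% confidence intervals. B2_Mm1a and B2_Mm1t lie below 0 at -0.66 and -0.28, and the other 35 lie above 0, most of them left of the dashed median of all repeats at 0.69.

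Scaling moved every subfamily by nearly the same amount. With the factors taken from repeats alone, the median of the subfamilies was -0.13. The summed class then had -0.21 and the summed MIR family 0.0057. B2_Mm1a and B2_Mm1t kept their direction at -1.36 and -0.98. Scaling by size factors of another method, by library totals or by genes alone left 35 higher and 2 lower, with a median between 0.56 and 0.63.

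**Figure D2:**
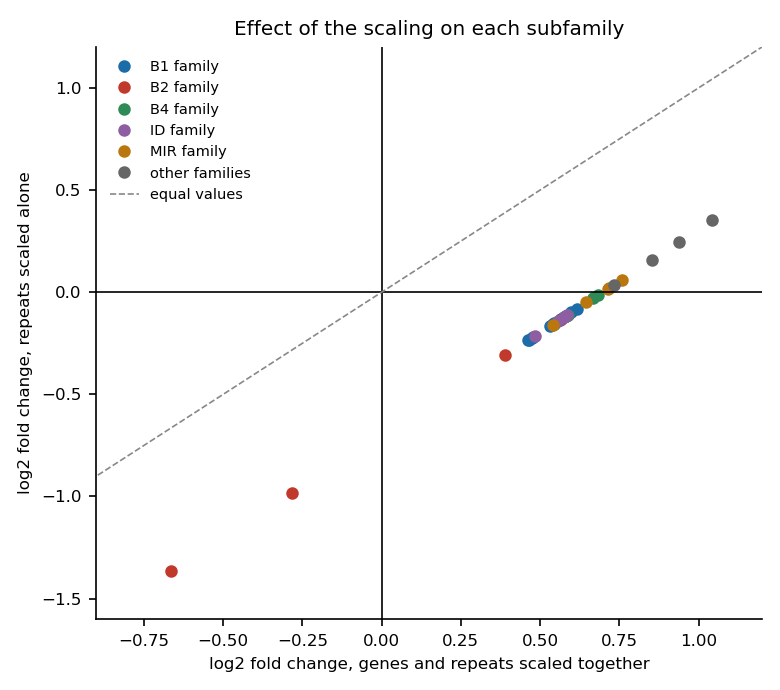
Log2 fold change of each of the 37 SINE subfamilies with genes and repeats scaled together (x axis) and with repeats scaled alone (y axis), coloured by family; the dashed line marks equal values. All points lie below the line by about the same distance, and B2_Mm1a and B2_Mm1t lie below 0 on both axes.

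The 2 lower rows belong to B2, whose youngest mouse subfamilies are the 3 rows named B2_Mm. B2_Mm1a had normalised counts of 38369.8 and 39240.5 in untreated 1 and 2, against 25001 and 23962 in genistein 1 and 2. Both genistein libraries lay well below both untreated libraries. Its log2 fold change was -0.66 (95% confidence interval -0.76 to -0.57, adjusted p = 1.6e-09, edgeR), and 17 of the 1118 tested repeats were lower still. B2_Mm1t had 27059 and 28104 in untreated 1 and 2, against 23196 and 22163 in genistein 1 and 2. The groups did not overlap here either, with a log2 fold change of -0.28 (-0.38 to -0.18, adjusted p = 5.5e-05, edgeR) and 47 repeats lower. Leaving out any 1 library kept B2_Mm1a between -0.69 and -0.63 and B2_Mm1t between -0.31 and -0.25.

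The third young subfamily moved the other way on this scale. B2_Mm2 had 54788 and 58205 in untreated 1 and 2, against 75219.6 and 72689.5 in genistein 1 and 2, a log2 fold change of 0.39 (0.30 to 0.48, adjusted p = 6.6e-07, edgeR), although with repeats scaled alone it was lower at -0.31. The ratio of B2_Mm1a to B2_Mm2 within a library does not depend on scaling. It was 0.700 and 0.674 without genistein, and 0.332 and 0.330 with it. The ratio of B2_Mm1t to B2_Mm2 was 0.494 and 0.483 against 0.308 and 0.305. Both ratios were lower in both genistein libraries, by 1.05 and 0.67 on the log2 scale. B2_Mm1a also lost against B2_Mm1t, from 1.42 and 1.40 to 1.08 and 1.08. How the counter splits reads that align to several B2 subfamilies was not stated, and a shift of reads between near-identical subfamilies was not tested. On the TMM scale the 3 rows summed had 120216 and 125549 in untreated 1 and 2, against 123417 and 118814 in genistein 1 and 2. These groups overlapped, with a log2 fold change of -0.021 (-0.11 to 0.065, adjusted p = 0.66, edgeR). Their share of SINE counts was 14.9% and 14.7% in untreated 1 and 2, against 10.4% and 10.4% in genistein 1 and 2. Relative to the summed SINE counts, the 3 rows together lay at -0.51 (SE 0.056, adjusted p = 1.5e-19, edgeR).

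The older B2 relatives B3 and B3A are the rest of the family. B3, the row with the most SINE counts, had 99564 and 105786 in untreated 1 and 2, against 154481 and 148848 in genistein 1 and 2. B3A had 48487 and 52318 in untreated 1 and 2, against 76463 and 74288 in genistein 1 and 2. Their log2 fold changes on the TMM scale were 0.56 (SE 0.039) and 0.58 (SE 0.045). Their ratio, B3A over B3, was 0.487 and 0.495 in the untreated and 0.495 and 0.499 in the genistein libraries. B2_Mm2 over B3, which does not depend on scaling either, was 0.550 and 0.550 in the untreated and 0.487 and 0.488 in the genistein libraries. That is a log2 change of -0.17, so B2_Mm2 also lost against B3. Relative to the summed SINE counts, B2_Mm2 lay at -0.10 and did not pass (adjusted p = 0.14, edgeR). The whole B2 family held 33.3% and 33.3% of SINE counts without genistein and 29.9% and 29.8% with it, and the 2 lower rows together held 8.13% and 7.90% of SINE counts without genistein and 4.07% and 4.02% with it.

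**Figure D3:**
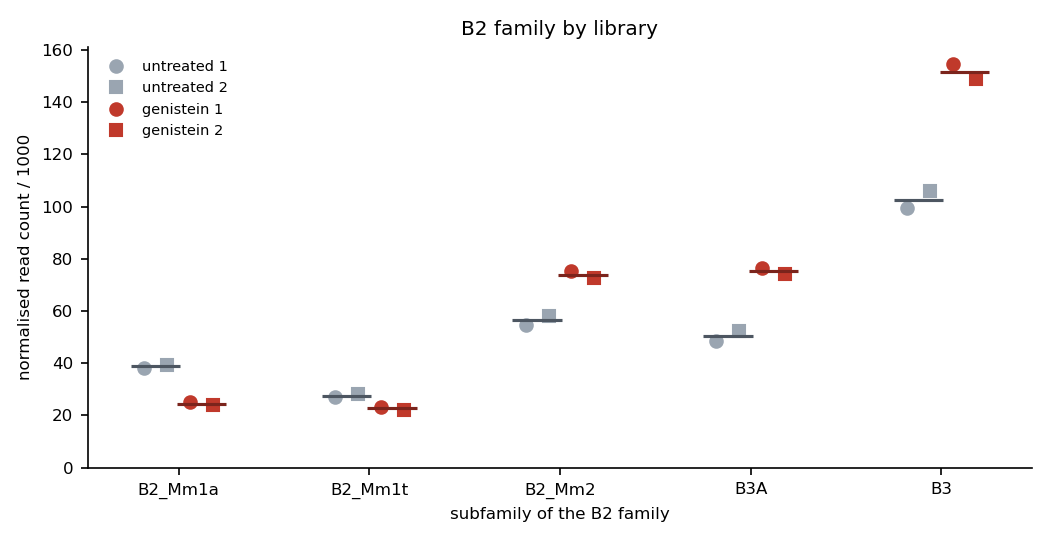
Normalised read counts, divided by 1000, of the 5 subfamilies of the B2 family in each of the 4 libraries; horizontal lines are group means. For B2_Mm1a and B2_Mm1t both genistein points (red) lie under both untreated points (grey), and for B2_Mm2, B3A and B3 they lie above.

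B1 is the largest family, with 39.4% and 39.2% of SINE counts without genistein and 40% and 40.3% with it. All 15 rows passed the filter and all were higher with genistein on the TMM scale, between 0.46 for B1_Mm and 0.62 for B1F1, whereas with repeats scaled alone all 15 were below 0. The youngest rows carry the names B1_Mm and B1_Mus. B1_Mm had 18245 and 18445 in untreated 1 and 2, against 25255 and 25309 in genistein 1 and 2. B1_Mus1 had 49959 and 51913 without genistein and 71089 and 69579 with it. B1_Mus2 had 34125 and 35920.4 without genistein and 49806 and 47753 with it. These 3 rows were higher in both genistein libraries and together had a log2 fold change of 0.47 (SE 0.039). The B1_Mur rows, shared more widely among murine rodents, came next. B1_Mur1 went from 25380.4 and 26963 to 38274 and 37781. B1_Mur2 went from 23069.8 and 24509 to 35007 and 34380.1. None of these groups overlapped. B1_Mur3 went from 16983 and 18167 to 25798 and 25397. B1_Mur4 went from 22876 and 24154 to 34416 and 33529.9. The 4 rows together had 0.54 (SE 0.042).

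Older B1 forms gave like values. B1F had 24304 and 25954 without genistein and 38399 and 37715 with it. B1F1 had 10804 and 11786 without genistein and 17681 and 16931 with it. B1F2 had 9938 and 10719 without genistein and 15454 and 15092 with it. Their sum had a log2 fold change of 0.60 (SE 0.048). The proto-B1 rows, which stand near the root of the family, had 0.53 (SE 0.042) together. PB1 went from 6283 and 6627 to 9791 and 9464. PB1D7 went from 12972 and 13822 to 19680.5 and 19365. Both genistein values of each lay above both untreated values. PB1D9 went from 27152 and 28348 to 39345 and 37769.9. PB1D10 went from 34809.5 and 36558 to 53427 and 52115. FAM, a fossil monomer with few counts, had 286 and 318 without genistein and 439 and 435 with it. Every B1 row thus had genistein libraries above the untreated ones on the TMM scale, on which 76.3% of tested repeats were called higher. How many of all repeats had groups apart in this way was not counted. At an adjusted p under 0.05 (edgeR), 0 of the 15 differed from the SINE class, with differences from -0.030 to 0.12. Of all entries of the fit that gave these differences, in which the summed SINE class served as the offset, 74.0% were called. That sum includes the B1 rows, so each was set partly against itself and its own family.

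The 4 rows of B4 together had a log2 fold change of 0.62 (SE 0.038, adjusted p = 3.5e-10, edgeR), and of -0.075 with repeats scaled alone. B4 itself had 26076 and 28364 in untreated 1 and 2, against 44158 and 42224 in genistein 1 and 2. B4A had 49064 and 53045 in untreated 1 and 2, against 83224 and 80518 in genistein 1 and 2. These rows had log2 fold changes of 0.67 and 0.68, and lay 0.17 and 0.19 above the SINE class. RSINE1, a rodent relative, had 51705 and 55049 without genistein and 81613 and 78301 with it. ID_B1, whose name gives its composite make-up, had 60371 and 63672 without genistein and 95107 and 91219 with it. They had 0.58 and 0.59. All 4 rows were called higher at an adjusted p under 0.05 on the TMM scale, as were 76.3% of tested repeats.

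ID was a small family in these cells, with 2.18% and 2.22% of SINE counts without genistein and 2.24% and 2.30% with it. ID had 2474 and 2653 without genistein and 3808 and 3876 with it. ID2 had 1001 and 1209 without genistein and 1702 and 1543 with it. ID4 had 6962 and 7473 without genistein and 10182 and 9981 with it. The groups did not overlap in these rows, though how many of all repeats had groups apart was not counted. ID4_ had 7099.6 and 7569.7 without genistein and 10876 and 10980.3 with it. The log2 fold changes ran from 0.48 for ID4 to 0.58 for ID, and none of the 4 differed from the SINE class at an adjusted p under 0.05 (edgeR). With repeats scaled alone all 4 were below 0.

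MIR elements are ancient and spread before mammals diverged. MIR had 5710.0 and 6061 in untreated 1 and 2, against 10081 and 9809 in genistein 1 and 2. MIRb had 4603 and 4864 in untreated 1 and 2, against 7895 and 7648 in genistein 1 and 2. Their log2 fold changes were 0.76 (SE 0.042, adjusted p = 1.0e-10, edgeR) and 0.72 (SE 0.036, adjusted p = 2.9e-11, edgeR). On this TMM scale 76.3% of tested repeats were called higher. Both rows stayed above 0 with repeats scaled alone, at 0.060 and 0.018, without passing the test. MIRc had 2165 and 2440.3 without genistein and 3645 and 3557 with it. MIR3 had 1642 and 1682 without genistein and 2505 and 2327 with it. These rows had 0.65 and 0.54. MIR1_Amn, with fewer counts, had 414 and 445 without genistein and 735 and 674 with it and a log2 fold change of 0.72. The MIR family sum had 0.70 (SE 0.051, adjusted p = 2.8e-09, edgeR).

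The remaining rows were old families with few counts. AmnSINE2 had the highest log2 fold change of all tested SINEs, 1.04. Its raw counts were 9 and 12 in untreated 1 and 2, against 24 and 22 in genistein 1 and 2. The untreated counts of AmnSINE2 alone would not have passed the filter on low counts. Its rank and its call thus lean on the group where it is high. Its interval was wide (0.31 to 1.77), and its call was lost with DESeq2 and on leaving out untreated 1 or genistein 1. MamSINE1 had 0.94 from raw counts of 143 and 204 in untreated 1 and 2, against 371 and 333 in genistein 1 and 2, with the untreated libraries apart from each other, and 0.66 without untreated 1 against 1.26 without untreated 2. LFSINE_Vert had 0.85 from 37 and 43 in untreated 1 and 2, against 90 and 63 in genistein 1 and 2. AmnSINE1 had 0.73 from 69 and 62 in untreated 1 and 2, against 120 and 110 in genistein 1 and 2. All 4 were called higher at an adjusted p under 0.05 on the TMM scale, again against 76.3% of tested repeats.

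Each subfamily was then set against the summed SINE class in the fit named above, which does not depend on scaling. That sum holds every SINE row, the tested one and the lower rows B2_Mm1a and B2_Mm1t included. B2_Mm1a lay -1.16 from the class (95% confidence interval -1.30 to -1.01) and B2_Mm1t -0.78 (-0.92 to -0.63), and both stayed below it, by the same test, when any 1 library was left out. Above the class were 7 rows, B4, B4A, MIR, MIRb, MIRc, MIR1_Amn and MamSINE1, by 0.15 to 0.45. This count was 3 without untreated 1, 6 without untreated 2 and 0 without either genistein library, and 3 with a replicate block. The other 28 did not pass. Among all 1118 repeats, 401 lay above the SINE class, 92 below it and 625 did not pass.

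The families were compared in 10 pairs by the same kind of fit, with 1 family as the offset for the other. B2 lay below each of the others. The ratio of B1 to B2 counts was 1.18 and 1.18 without genistein and 1.34 and 1.35 with it, a difference of 0.19 in log2 fold change (0.11 to 0.27, adjusted p = 8.5e-06, edgeR over all entries). B2 minus B4 was -0.29 (-0.39 to -0.19, adjusted p = 7.0e-08, edgeR), with ratios of 1.43 and 1.42 against 1.17 and 1.17. It lay under ID by a difference of -0.20 (-0.32 to -0.08, adjusted p = 0.0013, edgeR) and under MIR by -0.37 (-0.45 to -0.28, adjusted p = 9.5e-17, edgeR). B1 also lay below MIR, by a difference of -0.18 (-0.26 to -0.10, adjusted p = 1.7e-05, edgeR).

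The other 5 pairs did not pass, with edgeR's adjusted p from 0.052 to 0.81. B1 minus B4 was -0.099 (-0.19 to -0.0032), B1 minus ID -0.016 (-0.13 to 0.098), B4 minus ID 0.083 (-0.04 to 0.21), B4 minus MIR -0.080 (-0.17 to 0.012) and ID minus MIR -0.16 (-0.32 to -0.0076). The B2 differences turned on the 2 lower rows. With B2 summed without them, a choice made after seeing the data, B1 minus B2 was 0.0013, B2 minus B4 -0.10 and B2 minus ID -0.017, and these 3 no longer passed, while B2 minus MIR still did. The calls of B1 minus B2, B1 minus MIR and B2 minus ID were also lost without genistein 1 and without genistein 2, with edgeR's adjusted p between 0.053 and 0.16.

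**Figure D4:**
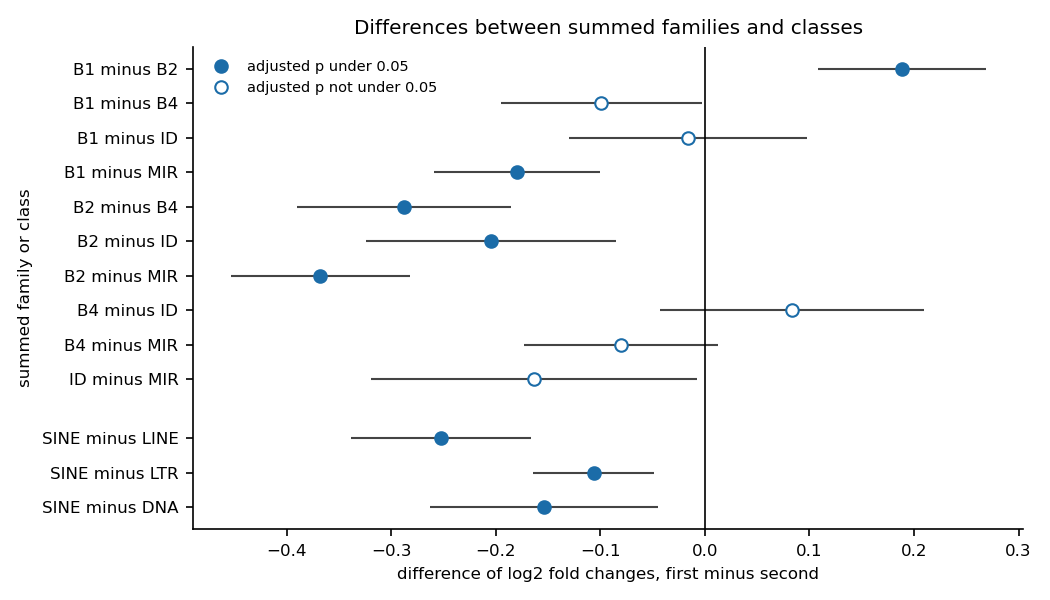
Difference between the log2 fold changes of 2 summed families or classes, first minus second, with 95% confidence intervals; filled points have an adjusted p under 0.05 in edgeR's test of the difference. The 4 pairs with B2 all place B2 below its partner, by 0.19 for B1 and up to -0.37 for B2 minus MIR.

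SINEs were also set against the other interspersed repeats. LINE elements rose by 0.74, LTR elements by 0.60 and DNA transposons by 0.65 on the same TMM scale. SINE counts over LINE counts were 3.83 and 3.76 without genistein and 3.20 and 3.17 with it, a difference of -0.25 in log2 fold change (-0.34 to -0.17, adjusted p = 2.0e-08, edgeR). SINE lay below LTR by a difference of -0.11 (-0.16 to -0.048, adjusted p = 0.00051, edgeR) and below DNA by -0.15 (-0.26 to -0.045, adjusted p = 0.0084, edgeR). The LTR and DNA calls were lost without genistein 1 and without genistein 2, and the DNA call also without the filter.

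RNAs related to SINEs or made by RNA polymerase III were measured in the same libraries. The 7SLRNA repeat row had normalised counts of 1444378 and 1541987 in untreated 1 and 2, against 737600 and 713396 in genistein 1 and 2. Its log2 fold change was -1.04 (SE 0.027, adjusted p = 1.0e-14, edgeR), lower in both genistein libraries, while the B1 rows that descend from it had values from 0.46 to 0.62. The genes Rn7s1, from 1468 and 1675 to 702 and 711, and Rn7s2, from 2446 and 2742 to 1185 and 1184, had -1.15 and -1.13. Their annotated transcripts differ at 0 of 300 compared positions, so these values may not be separate evidence. Rn7s2 had more counts than Rn7s1 in every library, and how reads were assigned between them was not tested. Rn7sk, the 7SK RNA that holds back the elongation factor P-TEFb, went from 134541 and 136889 to 85490.3 and 88064, -0.65 in log2 fold change (adjusted p = 1.4e-10, edgeR). Rpph1, the RNA of ribonuclease P, went from 164941 and 176959 to 112312 and 111729 (-0.61, adjusted p = 4.7e-10, edgeR). These were lower in both genistein libraries.

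Rmrp, the RNA of the related ribonuclease MRP, had 76194 and 121535 in untreated 1 and 2, against 73078 and 75627 in genistein 1 and 2, so that untreated 2 stood apart. Its log2 fold change was -0.41, and -0.040 without that library, which ended the call, as did DESeq2. BC1_Mm, the repeat row of Bc1-like sequence, went from 2299.6 and 2371 to 3076 and 3013 (0.38, adjusted p = 9.9e-08, edgeR), but had -0.32 with repeats scaled alone. Alanine transfer RNA rows are the kin of ID. tRNA-Ala-GCA had 0.60 and tRNA-Ala-GCY_ 0.46, although with repeats scaled alone they had -0.10 and -0.24, and tRNA-Ala-GCG (0.26) and tRNA-Ala-GCY (0.031) did not pass and had -0.44 and -0.66 on that scale. Of the serine transfer RNA rows, the kin of B2, tRNA-Ser-TCG fell by 1.06, tRNA-Ser-AGY fell by 0.85 and tRNA-Ser-TCY fell by 0.74 on the log2 scale, from raw counts of at most 115 in any library, and the tRNA-Ser-TCY call was lost without untreated 2. tRNA-Ser-TCA(m) had 0.30 and did not pass, though it passed as higher with library totals (0.37, adjusted p = 0.027, edgeR) and with factors from genes alone (0.35, adjusted p = 0.039, edgeR), and had -0.39 with repeats scaled alone. tRNA-Ser-TCA had 3 counts in all and tRNA-Ser-TCA_ 0, too few to test. On the scales that include genes, B2_Mm1a and B2_Mm1t fell, as did 7SL, 7SK and ribonuclease P RNA. The rows tRNA-Ser-TCG, tRNA-Ser-AGY and tRNA-Ser-TCY fell too. On the same scales 35 other SINE rows rose, as did BC1_Mm, tRNA-Ala-GCA and tRNA-Ala-GCY_, so the related RNAs did not move in 1 direction. With repeats scaled alone, 24 SINE rows were lower and 0 higher, so most other SINE rows then had the sign of the B2_Mm1 rows. Whether these RNAs share a cause was not tested.

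**Figure D5:**
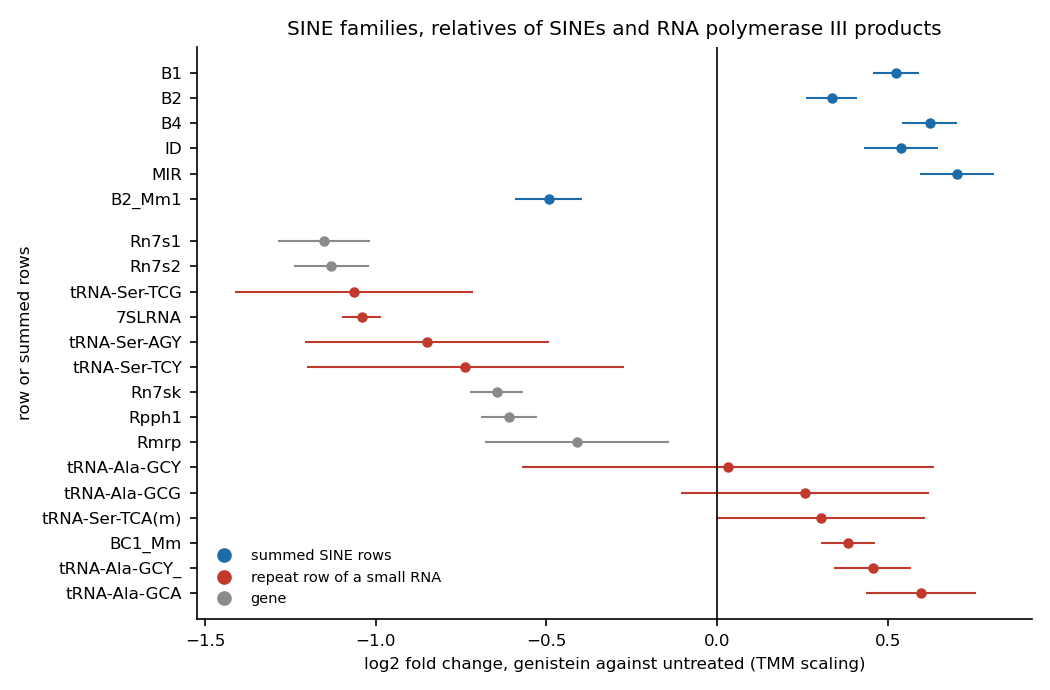
Log2 fold change on the TMM scale, with 95% confidence intervals, of the summed SINE families and the 2 summed B2_Mm1 rows (blue), repeat rows of small RNAs (red) and genes of RNA polymerase III products (grey). The 5 families lie above 0, and the B2_Mm1 rows at -0.49 lie below 0 as do 7SLRNA, Rn7sk and Rpph1. BC1_Mm, tRNA-Ala-GCA and tRNA-Ala-GCY_ lie above 0.

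Genes linked to SINEs were taken from 4 lists of 83 genes, of which 79 were tested, and 14 were higher and 50 lower, read against 36.2% and 36.0% of all entries. Of the 30 genes of RNA polymerase III and its factors, 3 were higher and 20 lower, with a median log2 fold change of -0.31. With library totals or with factors from genes alone, 5 were higher. Polr3g, a polymerase subunit with the alternative form Polr3gl, went from 610.4 and 603 to 212 and 227 (-1.47, adjusted p = 5.8e-11, edgeR). Gtf3c6 (-0.94), a subunit of the factor TFIIIC, and Gtf3a (-0.87), which is TFIIIA of 5S RNA genes, came next. The 3 higher genes were Gtf3c1, the largest TFIIIC subunit, from 4547 and 4559.8 to 7035 and 7001 (0.62, adjusted p = 1.9e-11, edgeR), Snapc5 (0.54) and Polr3gl (0.48). Maf1, the repressor of RNA polymerase III, had 1102 and 1066 in untreated 1 and 2, against 1069 and 1038 in genistein 1 and 2, with overlapping groups and a log2 change of -0.041 (adjusted p = 0.49, edgeR).

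Of 15 tested genes of the signal recognition particle and of proteins that bind SINE RNA, 1 was higher and 12 lower. Their median was -0.45. Among all entries 36.2% were higher and 36.0% lower. Ssb, the La protein that binds the ends of RNA polymerase III transcripts, went from 8953 and 8471 to 4686 and 4824 (-0.87, adjusted p = 5.6e-12, edgeR). Hnrnpk (-0.77) and Srp68 (-0.55) followed. Srp9 and Srp14 form the pair that binds the B1-like end of 7SL, and had log2 fold changes of -0.38 (adjusted p = 3.8e-07, edgeR) and -0.16 (adjusted p = 0.0023, edgeR). Scaled by library totals, Srp14 had -0.086 and did not pass (adjusted p = 0.088, edgeR). Srp72 was the higher gene (0.18), and 2 genes were higher with library totals or with factors from genes alone.

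Of 24 genes listed under SINE silencing, 2 were higher and 18 lower, with a median of -0.47. Among all entries 36.2% were higher and 36.0% lower. Ctcf, a chromatin insulator protein with binding sites in B2 rather than a SINE silencer, had 4475 and 4388 in untreated 1 and 2. In genistein 1 and 2 it had 1873 and 1917. It was lower in both genistein libraries (-1.23, adjusted p = 4.8e-14, edgeR). Dnmt3b, a DNA methyltransferase, had -1.15, and Suv39h2, a methyltransferase of histone H3 lysine 9, had -1.01. Setdb1, another such enzyme, had -0.075 and did not pass (adjusted p = 0.072, edgeR), though it passed as lower with size factors by relative log expression (-0.084, adjusted p = 0.049, edgeR) and with no filter (-0.10, adjusted p = 0.031, edgeR). Adnp (0.17) and Dnmt3a (0.11) were the higher genes, and both calls were lost without untreated 1. The Dnmt3a call was also lost without untreated 2, without genistein 2, with no filter and with DESeq2.

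Genes of editing and sensing of double-stranded RNA went the other way, with 8 of 10 tested higher, 0 lower at an adjusted p under 0.05, and a median of 0.81. Of all entries, 36.2% were higher and 36.0% lower. DESeq2 called 5 of the 10 genes higher and 0 lower, with the calls of Ifih1, Tlr3 and Mavs lost. Tlr3 also hung on single libraries, with 0.68 in the main fit, 0.37 without genistein 1 and 1.06 without untreated 1. Zbp1, a sensor of Z-form nucleic acid, had raw counts of 0 and 1 in untreated 1 and 2, against 11 and 16 in genistein 1 and 2. Ifih1, the sensor MDA5, had raw counts of 5 and 4 in untreated 1 and 2, against 15 and 13 in genistein 1 and 2. These are too few to size the change well, and the Ifih1 call was lost with DESeq2. Zbp1 and Ifih1 passed the filter on low counts only through the genistein libraries, where they are high. Both count among the 8 and enter the median, so they give no separate support. The listed genes Oas1a, Oas2 and Oas3 had too few counts to test. Adar, the editing enzyme that acts on paired SINEs, had 984 and 945 in untreated 1 and 2, against 1046 and 909 in genistein 1 and 2, with overlapping groups and a log2 change of 0.020 (adjusted p = 0.79, edgeR). Its relative Adarb1 had 0.97 (adjusted p = 6.6e-10, edgeR). Whether these changes bear on the SINE counts was not tested.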

How the data were processed

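Total RNA of 4 MEF libraries was compared, 2 untreated and 2 exposed to genistein, grouped by the labels. Per the study's methods, the authors removed ribosomal RNA, read both ends over 150 bp, used Trim Galore for trimming and STAR for alignment to mm10 (up to 100 alignments per read), and counted genes (Gencode M9) and repeats with TEtranscripts. The deposited values are raw counts per gene or repeat subfamily, not normalised. How TEtranscripts shared reads between genes and repeats, its multi-mapping mode and its strand option are not given in the sources used here. The table has 49383 rows, of which 1 names no feature and was left out.

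Counts of genes and repeats were fitted together with edgeR 4.0.16 (filterByExpr by group, TMM, quasi-likelihood test) in R 4.3.3, with Benjamini-Hochberg adjustment over 17358 entries (16240 genes and 1118 repeats). The SE is the log2 fold change divided by the square root of F. Family and class sums were added to the same fit. Differences between families were tested with the other sum as the offset. An exact permutation test of 2 against 2 cannot go below p = 0.333, so model tests were used. Alternatives were DESeq2 1.42.0, other scalings, no filter, a replicate block and fits without 1 library. Replicates were counted as separate samples. SINE counts within a pair varied beyond counting noise (chi-square over degrees of freedom 3.56 in the untreated and 2.49 in the genistein pair). Intervals of the main fit combine the spread of each row between libraries with the spread shared over all entries. The median total degrees of freedom were 15.56. Reads carry no molecular identifiers. In the fits with a sum as the offset, intervals and p-values rest almost wholly on the spread shared over all entries. They do not measure the spread between libraries of the compared rows alone.

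The members, gene lists and tests were chosen with earlier results of these data known. Values per library are given for each subfamily of the 5 families with a mean normalised count over 1000, then for the 3 highest and 3 lowest log2 fold changes and the rows that failed the filter. SINE relatives, Srp9, Srp14, Adar, Maf1 and Setdb1 are named whatever their values, and of each gene list up to 3 highest and 3 lowest genes with an adjusted p under 0.05. The values of 1 gene that this choice covers are not reported here.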

Additional observations from a re-analysis of the deposited data

How the results depend on the processing

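Fitting repeats alone was the alternative that turned directions, by its own construction, since most repeats rose together. It gave 0 higher and 24 lower subfamilies, a median of -0.13, and log2 fold changes of -0.21 for the SINE sum, -0.17 for B1, -0.36 for B2, -0.075 for B4, -0.16 for ID and 0.0057 for MIR, with B4 and MIR not passing. Of the single rows that had passed, those that turned were B1_Mm at -0.24, B1_Mus1 at -0.23, B1_Mus2 at -0.22, B1_Mur1 at -0.16, B1_Mur2 at -0.15, B1_Mur3 at -0.15, B1_Mur4 at -0.17, B1F at -0.098, B1F1 at -0.081, B1F2 at -0.13, PB1 at -0.12, PB1D7 at -0.15, PB1D9 at -0.22, PB1D10 at -0.13, FAM at -0.16, B2_Mm2 at -0.31, B3 at -0.13, B3A at -0.12, B4 at -0.031, B4A at -0.015, RSINE1 at -0.11, ID_B1 at -0.11, ID at -0.11, ID2 at -0.14, ID4 at -0.21, ID4_ at -0.12, MIR3 at -0.16, MIRc at -0.050, BC1_Mm at -0.32, tRNA-Ala-GCA at -0.10 and tRNA-Ala-GCY_ at -0.24.

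Library totals gave a median of 0.63 for the subfamilies. Counts past the fold threshold went from 0 to 1 with a mean count over 10 and to 34 with no fold threshold. With B2 summed without B2_Mm1a and B2_Mm1t, chosen after seeing the data, B1 minus B2 was 0.0013, B2 minus B4 -0.10 and B2 minus ID -0.017. SINE minus DNA was -0.15 without a filter and no longer passed, and ID minus MIR passed with DESeq2 at -0.16. For these the cause was not tested. Leaving out 1 library gave a median from 0.52 to 0.62, 0 to 6 rows above the SINE class, B4 minus ID from 0.060 to 0.11 (passing without either untreated library), B1 minus B2 from 0.18 to 0.20, B1 minus MIR from -0.19 to -0.17, B2 minus ID from -0.23 to -0.18, SINE minus LTR from -0.11 to -0.10 and SINE minus DNA from -0.18 to -0.13, the last 5 losing their calls without genistein 1 and without genistein 2. Same-numbered libraries had a correlation of deviations of -0.026, so the numbers are not shown to pair them, and a replicate block left 35 higher and 2 lower and gave 3 rows above the SINE class. Each group had 2 libraries, so 2 against 2 cannot reach an exact permutation p below 0.333, and the calls rest on the spread that edgeR shares between entries.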
